A study of Homo sapiens with 6 samples.

Results

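The chromatin loops around MYC and PVT1 on chromosome 8 were examined in HAP1 cells. HAP1 is an adherent human cell line that descends from KBM-7, a chronic myeloid leukaemia line. Micro-C reads which stretches of chromatin touch each other in the nucleus, after micrococcal nuclease has cut the chromatin into nucleosomes. All 6 replicates form 1 group of unedited HAP1 cells, sorted as diploid by their Hoechst stain, so every value describes that 1 line. All were fixed with 1% formaldehyde (10 min) and with 3 mM of the crosslinker DSG (45 min), and were digested to 80 to 90% monomers. The labels do not say whether the replicates were separate cultures. The authors deposited 1 loop list in which they are not told apart, so no spread between replicates and no test over samples can be given. Members were the loops with at least 1 anchor overlapping 127900001 to 130800000 (hg19). They numbered 20 of the 46849 loops in the list (exact Poisson 95% interval 12.2 to 30.9, counting error only). Of these, 10 had an anchor within 10 kb of MYC (128748001 to 128754000), and 4 had one within PVT1 (128806001 to 129114000). These 4 were all among the 10 at MYC. The remaining 10 loops had both anchors in the flanks.

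MYC encodes a transcription factor that drives cell growth and division, and it is a classic oncogene. It is surrounded by wide stretches with few other coding genes but many enhancers, each active in its own tissues, and enhancers reach the MYC promoter through chromatin loops. PVT1, a long non-coding RNA gene next to MYC, holds enhancers in its body and has a promoter known to compete with that of MYC for them. Far beyond PVT1 lies an enhancer cluster known to drive MYC in blood cells and leukaemias. Loops are often held at their anchors by the protein CTCF together with cohesin.

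The gene order around MYC was taken from the RefSeq table of GRCh38, for names only, since the loops are in hg19. The coding gene before MYC is POU5F1B, a retrogene copy of the stem cell factor POU5F1, and 2 long non-coding RNA genes, CASC11 among them, lie between. No entry separates MYC from PVT1. Between PVT1 and the next coding gene, GSDMC, a gasdermin gene, the table has 20 entries, of which 10 are long non-coding RNA genes (LINC00824, LINC00977 and CCDC26 among them) and 6 are microRNA genes. Flanking anchors are therefore given by position and were not assigned to genes. DNA sequences of these anchors are not shown.

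A loop is a pair of anchors, each 5 or 10 kb wide, whose contact count exceeds that of its surroundings. Loop strength below is the observed count over the caller's donut expectation, which is the count foreseen from a ring around the loop pixel. "Upward" means towards higher coordinates, the direction from MYC to PVT1. The 20 loops had 11 to 73 observed contacts, with a median of 25.5, against 31 over all loops. Their strength was 2.08 to 15.3. Spans ran from 50 kb to 2.855 Mb with a median of 377.5 kb, against 160 kb over all loops. Of the 20 loops, 5 spanned 1 Mb or more (25.0%), where 3.83% of all loops did. Anchors were 10 kb wide in 6 loops (30.0%), where 15.2% of all loops had such anchors. A single significant pixel carried 2 of the 20 loops (10.0%), against 8.94% of all loops.

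**Figure D1:**
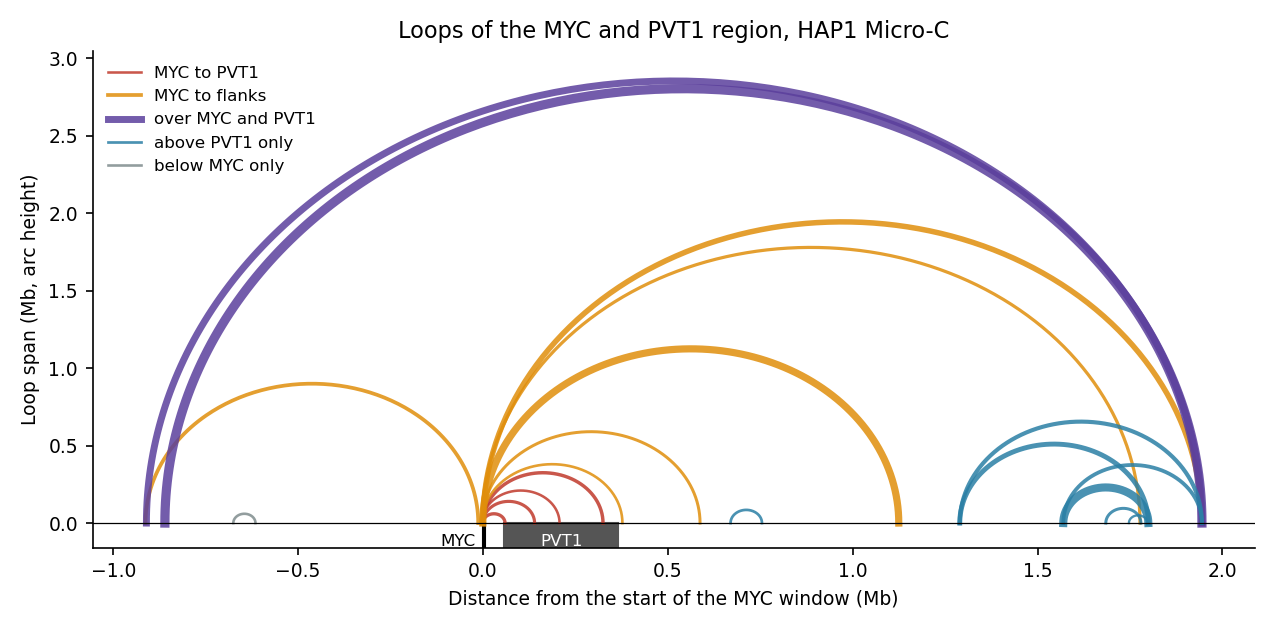
Loops of the region as arcs, placed by distance from the start of the MYC window in Mb, with arc height equal to the span in Mb and line width growing with strength. Of the 10 loops at MYC, 9 run upward, and 2 loops of 2.805 and 2.855 Mb pass over MYC and PVT1.

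With anchors merged by overlap of at least 1 bp, MYC was a one-sided anchor with many loops. Its merged anchor (128740001 to 128750000), which takes in the start of the MYC window, held 9 loops, and all 9 ran upward, over or into PVT1. The body of MYC beyond 128750000 held no anchor. The single loop at MYC to lower coordinates ended at the neighbouring bin (128730001 to 128740000), which meets the 10 kb limit but does not overlap the gene. With anchors within 10 kb counted as 1, the MYC anchor held 10 loops, this downward one among them, and was not one-sided. Thus 9 of 10 loops at MYC ran upward (90.0%, exact binomial 95% interval 55.5 to 99.7%, counting error only, and loops at a shared anchor are not independent).

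Few anchors of the list held as many loops. Of 47497 merged anchors, 176 held 9 or more loops (0.371%), and 3 of these lay on chromosome 8. All loops ran to 1 side at 20.5% of the 176, and they all ran upward at 19 of them (10.8%), MYC included. These shares hold for merging by overlap of at least 1 bp and were not computed for the 10 kb rule. Among these 19 anchors the farthest loop spanned 610 to 2220 kb. That of MYC, at 1945 kb, ranked 4 of 19.

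In the list, PVT1 was joined to MYC at 4 places and to nothing else. The anchor at 128805001 to 128810000 takes in the start of PVT1, where its promoter lies. Its 60 kb loop to MYC had 59 observed contacts (exact Poisson 95% interval 44.9 to 76.1) against 14.8 expected, a strength of 3.98 (interval 3.03 to 5.13). It had the most merged pixels of the loops at MYC, 8, within a radius of 23.2 kb. Inside the gene, the anchor at 128885001 to 128890000 had 31 contacts with MYC and a strength of 3.65 (interval 2.48 to 5.18), with 6 merged pixels in a wider radius of 28.0 kb. The anchor at 128950001 to 128960000 had 49 contacts in a 10 kb pixel and a strength of 2.51 (interval 1.86 to 3.32). The most distant, at 129070001 to 129075000, had 20 contacts and a strength of 4.22 (interval 2.58 to 6.51). The 3 strengths of 5 kb loops overlapped within their counting intervals, although these spans differ and strength grows with span in the whole list. Each of the 4 PVT1 anchors held 1 loop, that to MYC, and no loop joined PVT1 to the flanks or to itself.

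From MYC, 5 more loops passed over PVT1 into the upper flank. The first ended just past the end of PVT1 (129120001 to 129130000), with 35 contacts and a strength of 2.68 (interval 1.87 to 3.72). The next ended at 129330001 to 129340000, 590 kb from MYC, with 26 contacts and a strength of 3.33. The loop to 129870001 to 129875000 spanned 1125 kb and had the highest strength of all loops at MYC, 11.4 (interval 7.64 to 16.4), with 29 contacts against 2.54 expected. The remaining pair reached 130520001 to 130530000 (1780 kb, 22 contacts, strength 3.75) and 130690001 to 130695000 (1945 kb, 26 contacts, strength 8.17 with an interval of 5.34 to 11.97). Among the upward loops with 5 kb anchors, the 60 kb loop had the highest count, and its interval lay above those of the 4 others. These 4, from 140 to 1945 kb, had 20 to 31 contacts, and their intervals overlapped. Their donut expectations were highest at 140 kb (8.502) and lowest at 1125 kb (2.54).

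**Figure D2:**
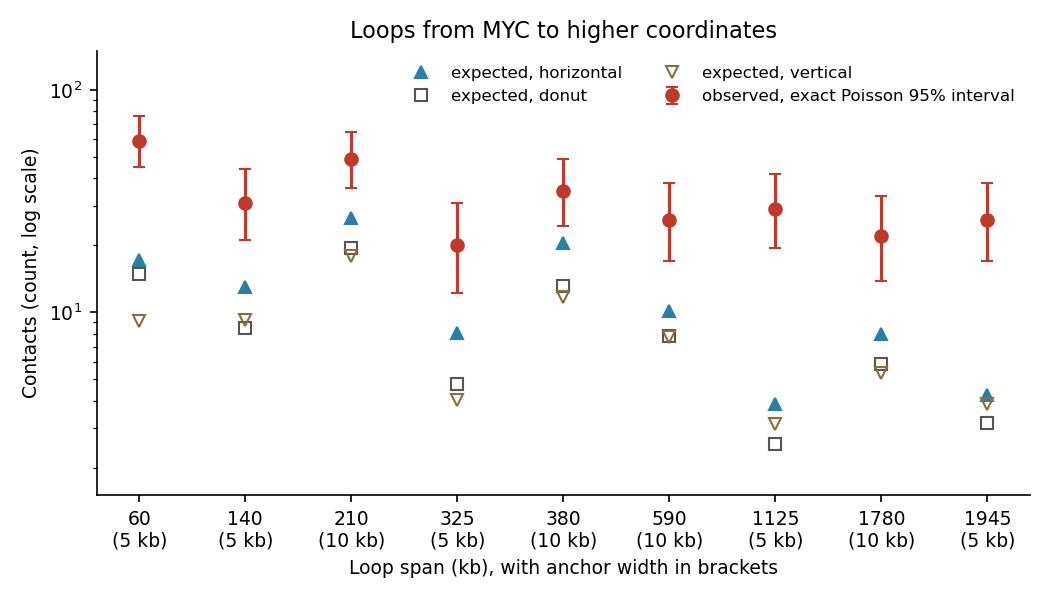
Contacts (log scale) of the 9 loops from MYC to higher coordinates, ordered by span, with filled circles and exact Poisson 95% intervals for observed counts and open or filled shapes for 3 expectations. The horizontal expectation (filled triangles) lies above the donut expectation in each of the 9 loops, by 1.15 to 1.70 times.

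The surroundings of the MYC loops were themselves rich in contacts along 1 axis. Besides the donut, the caller gives an expectation from a horizontal and one from a vertical strip through the pixel. The horizontal expectation exceeded the vertical one in 9 of 9 upward MYC loops, where it did so in 49.6% of all loops. It was above the donut expectation in 9 of 9 as well, where 77.4% of all loops had this. It was 1.36 times the donut expectation at the median of the 9 (range 1.15 to 1.70), and the vertical one 0.922 times. Over all loops these medians were 1.13 and 1.14. The comparison of the strips was chosen after seeing the data. The file does not say which anchor the horizontal strip follows. Over all anchors with 5 or more loops that all ran upward, the horizontal expectation was above the vertical one in 77.0% of 2760 loops. Over such downward anchors it was so in 23.7% of 2847. Its median over the donut expectation was 1.36 at these upward anchors, as at MYC, and 1.08 at the downward ones. Among the 19 upward anchors with 9 or more loops, their medians of horizontal over donut ran from 1.25 to 1.78, and MYC ranked 15.

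Strength at MYC depended on which surroundings were used. The median strength of the 10 loops at MYC was 3.87 over the donut expectation and 2.65 over the horizontal one. The second value is lower by construction, since the horizontal expectation was the higher one in the 9 upward loops. Among loops of like anchor width and span (within 20%), their median percentile was 58.6 with the donut and 26.5 with the horizontal expectation. It was 80.8 with the vertical, 44.9 with the lower-left and 39.4 with the largest expectation. Each of the 4 q-values was at or below 0.1 in 6 of 9 upward loops (66.7%), near the 72.0% of all loops. In the other 3 (to 129070001, 129120001 and 130520001) the horizontal q-value alone was above that limit, at 0.206, 0.703 and 0.143.

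**Figure D3:**
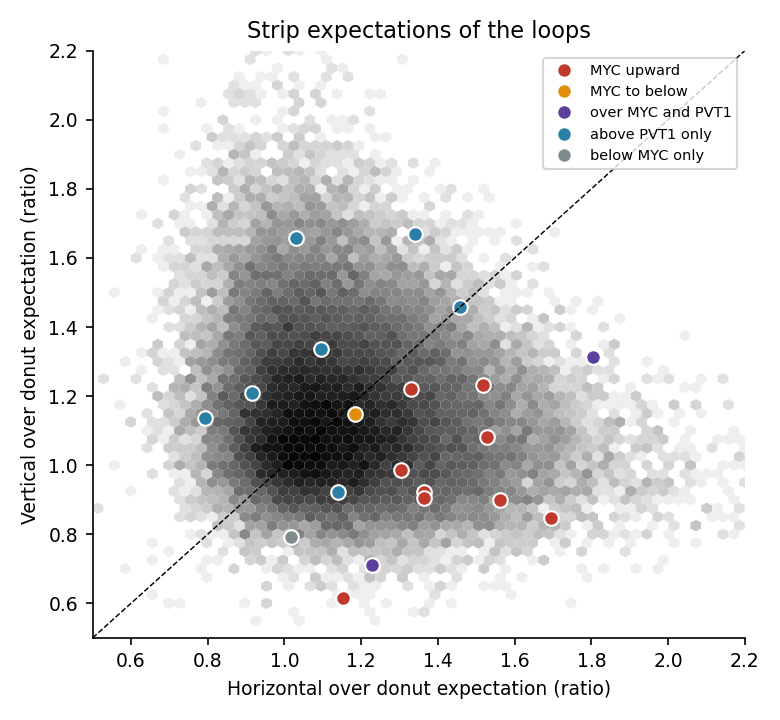
Horizontal against vertical expectation, each as a ratio to the donut expectation, with all loops of the list as grey density (log scale) and the 20 loops as points coloured by where they are anchored. The 9 upward MYC loops lie to the right of the dashed line of equal values.

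Downward from MYC the landscape was sparse. The loop from the bin before MYC reached 127830001 to 127840000, 900 kb away, with 22 contacts, a strength of 4.76 (interval 2.98 to 7.20) and a single significant pixel. Between that bin and the next lower anchor lay 595 kb with no anchor (128135001 to 128730000), longer than 99.4% of all anchor-free stretches. The lower flank held a single loop of its own, of 60 kb (128070001 to 128075000 with 128130001 to 128135000). This loop had the span and anchor width of the loop from MYC to the start of PVT1. The loop at MYC had 59 contacts (44.9 to 76.1), against 11 (5.49 to 19.7) for the lower-flank loop, so that the counting intervals did not overlap. Their strengths of 3.98 (3.03 to 5.13) at MYC and 2.63 (1.31 to 4.71) in the lower flank did overlap. All 4 q-values of the lower-flank loop were above 0.1, the lowest being 0.381.

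The number of loops passing over a position differed between the 2 sides of MYC. Just above the MYC anchor 11 loops passed over, and within PVT1 7 to 10. Over the MYC anchors 2 did, and below them 3 to 4. Over chromosome 8 the median position had 4 loops passing over it (quartiles 2 and 6), and 2.80% of positions had 11 or more.

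**Figure D4:**
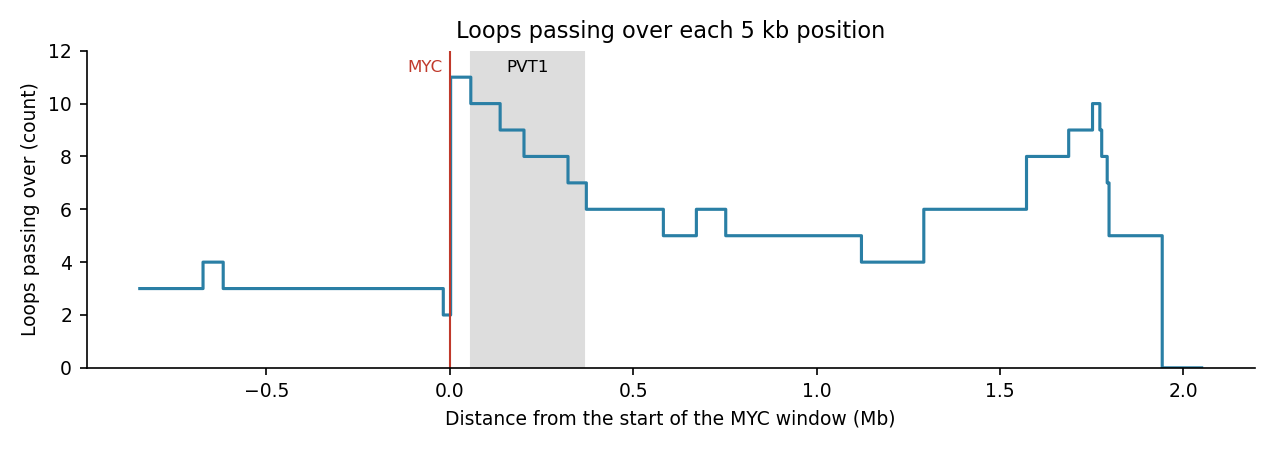
Number of loops that pass over each 5 kb position without an anchor there, by distance from the start of the MYC window in Mb, with MYC as a red line and PVT1 shaded. The count stands at 11 just above MYC and 3 to 4 below the MYC anchors, with 2 over the MYC anchors themselves, and at 0 beyond the last anchor.

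The upper end of the landscape was another one-sided anchor. The bin at 130690001 to 130695000 held 5 loops, and all ran downward, towards MYC and PVT1. As many loops or more were held by 6.71% of all anchors, and at 30.7% of those all loops ran to 1 side. It was joined to both bins near the lower edge, to MYC, and to 130035001 to 130040000 and 130315001 to 130320000. Its loop to 130035001 had 3 of 4 q-values above 0.1 (0.183, 0.102 and 0.465). Its loop to 130315001 had 1 above 0.1 (0.123). Of all loops, 72.0% had each q-value at or below 0.1. No loop passed over the 110 kb from that anchor to 130800000. Positions with no loop over them made up 12.8% of chromosome 8.

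Its counts at 5 distances were as follows. For 5 kb anchors throughout, it had 13 contacts with the anchor 375 kb away (exact Poisson 95% interval 6.92 to 22.2) and 11 at 655 kb (5.49 to 19.7). It had 26 with MYC at 1945 kb (17.0 to 38.1), and 25 at 2805 kb (16.2 to 36.9) and 16 at 2855 kb (9.14 to 26.0) with the lower edge. The intervals of all 5 overlapped, which does not show that the counts are alike, and no test of their difference was made. Only called loops are in the list, so pixels with lower counts at any distance are not seen. Over all loops of like span, the median count was 24 at 375 kb, 19 at 655 kb, 14.5 at 1945 kb and 17 at both longest spans.

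Both loops from the lower edge passed over MYC and PVT1 without an anchor at either. They started at 127835001 to 127840000 (16 contacts, strength 10.9, interval 6.24 to 17.7) and 127885001 to 127890000 (25 contacts, strength 15.3, interval 9.91 to 22.6). These were the 2 longest loops of the region, a class of 2 Mb or more that held 0.493% of all loops. Their strengths lay at the 30.95 and 51.22 percentile of the 42 and 41 loops of like span and width. With anchors within 10 kb counted as 1, the lower edge, MYC and the upper anchor were joined in each pair, forming 1 closed triangle. With overlap of at least 1 bp as the rule there was none, since the lower loop ends 1 bin before the MYC anchor.

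Above PVT1, 7 loops had both anchors in the upper flank, 6 of them beyond 130035000. The strongest joined 130315001 to 130320000 with 130545001 to 130550000, over 230 kb, with 58 contacts (44.0 to 74.98) against 4.41 expected. Its strength of 13.2 (interval 9.99 to 17.0) lay above 96.7% of loops of like span and width, the highest such place among the 20 loops. The highest count, 73, belonged to the shortest loop (130490001 to 130500000 with 130540001 to 130550000, 50 kb), whose 10 kb pixel covers more area and whose strength was 2.08. The anchors at 130035001 and 130315001 were each joined to both 130540001 to 130550000 and 130690001 to 130695000, with 14 and 11 contacts from the first and 58 and 13 from the second. As given above, the loops of 11 and 13 contacts had at least 1 q-value above 0.1. The loop from 130430001 to 130435000 ended at 130525001 to 130530000, within the 10 kb anchor that MYC also reached, with 29 contacts and a strength of 3.34. The 1 upper-flank loop that lay below 130035000 spanned 85 kb, at 129415001 to 129420000 and 129500001 to 129505000, with 11 contacts, a strength of 2.81 and all 4 q-values above 0.1, as in the lower-flank loop.

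The 20 loops used 22 merged anchors, of which 15 held 1 loop and 7 held at least 2 (31.8%, against 45.9% of all anchors). At each of the 7 the loops all ran the same way, as they did at 55.9% of all anchors with at least 2 loops, and 4 of the 7 held just 2. Upward loops left the lower edge, MYC, 130035001 and 130315001, and downward loops met at 130520001, 130540001 and 130690001. Of the 9 upward partners of MYC, 2 held loops to other anchors, those at 130520001 and 130690001 (22.2%, where 45.9% of all anchors held at least 2). With anchors within 10 kb counted as 1, 6 anchors held several loops, and the loops at MYC then ran both ways.

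Strength grows with span in the whole list, so each loop was also placed among loops of its own anchor width with a span within 20%. The 10 loops at MYC had a median strength percentile of 58.6 and the 20 loops one of 48.0. A strength above the upper quartile of like loops was seen in 3 of 10 loops at MYC and in 4 of all 20, where 25.5% of all loops had one. At MYC these were the loops to the start of PVT1, to 129870001 and to the lower edge, at the 83.4, 83.0 and 87.6 percentile. A share near that of all loops is no result about these loops.

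The expectation, a measure of how many contacts surround a loop, was higher in rank for the upward MYC loops than for the loops anchored above PVT1 only. For the 9 upward MYC loops the donut expectation lay at the 43.6 to 95 percentile of like loops (median 58.6). For the 7 upper-flank loops it lay at the 1.46 to 36.6 percentile (median 13.1), and these ranges did not overlap. It was below the median of like loops in 2 of 9 upward MYC loops and in 7 of 7 upper-flank loops, against 51.3% of all loops. The loop to 130690001 had 3.18 expected contacts, 2.14 times the median of like loops, whereas the upper-flank loop of 85 kb had 3.91, 0.367 times that median. The 3 loops outside these groups that start at the lower edge did not follow that division. The downward MYC loop lay at the 22.4 percentile, and the pair passing over MYC and PVT1 at 69.0 and 78.0. Over the 10 loops at MYC and the 10 others the ranges overlapped. The lower-flank loop, with 4.18 expected contacts, was lower still in rank, at the 0.828 percentile. Loops at a shared anchor are not independent, and no test over samples can be made of this difference. The comparison of expectation percentiles was chosen after seeing the data.

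**Figure D5:**
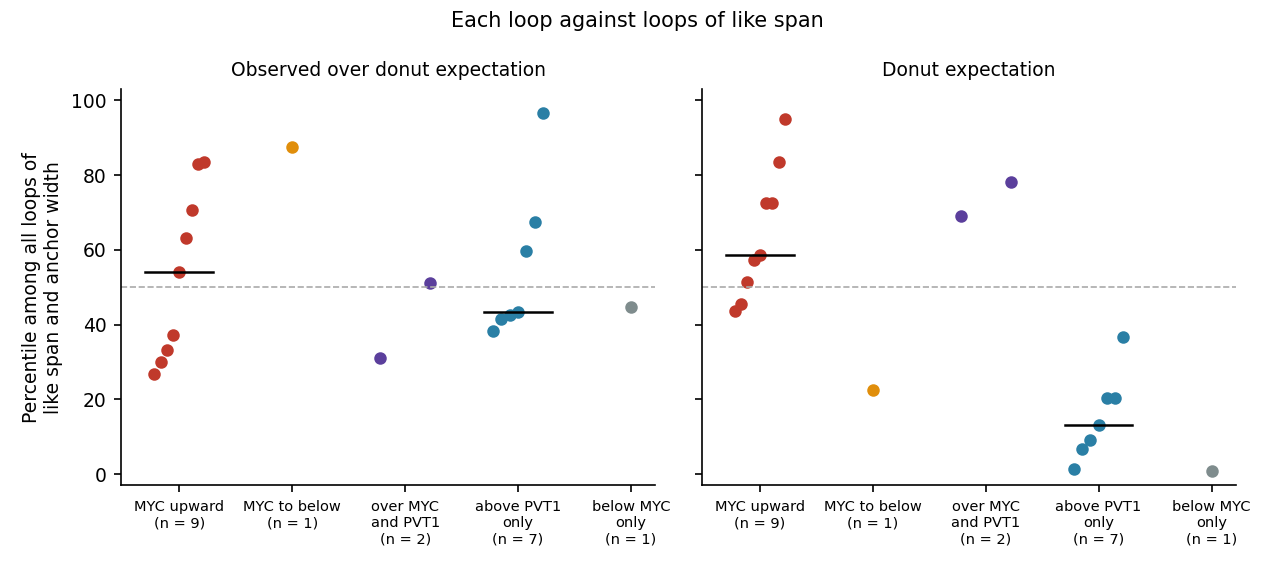
Percentile of each loop among all loops of its anchor width with a span within 20%, for strength (left) and donut expectation (right), with bars at the median of groups of 7 and 9 loops. Strength percentiles of the groups mix, while the donut expectation percentiles of the 9 upward MYC loops all lie above those of the 7 loops anchored above PVT1 only.

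The region as a whole was poor in loops. It carried 6.90 loops per Mb (interval 4.21 to 10.7), and its 20 loops compare with a median of 52 (quartiles 35 and 66) in 998 windows of the same 2.9 Mb tiled over all chromosomes. As few or fewer were found in 109 windows (10.9%), and on chromosome 8 in 7 of 50. Anchors per Mb differed between its parts, on small counts. PVT1 carried 4 merged anchors (12.99 per Mb), the upper flank 12 (7.12 per Mb) and the lower flank 3 (3.58 per Mb). The bin before MYC, where the downward MYC loop ends, is among the 3 of the lower flank. Such rates were not computed for the whole list, so these do not show that PVT1 is rich in anchors. Stretches between neighbouring anchors had a median of 95 kb, against 40 kb over the list. Contact depth in the region, the donut expectation of its 14 loops of 5 kb corrected for span, was 0.834 times that of the rest of chromosome 8 (log2 difference -0.26, 95% order-statistic interval of the region's median -0.73 to 0.21). This interval takes in 0. Over the region's 6 loops of 10 kb the difference had the other sign (log2 difference 0.17, 1.12 times).

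At the edges of the window, the nearest loops left out started 35 kb above it, at 130835001 to 130840000. These 3 loops ran upward with 64, 31 and 27 contacts and strengths of 4.51, 4.09 and 3.98. Just inside lay the downward anchor at 130690001. Below the window the nearest loop left out ended 320 kb away, at 127580000, and the lower-edge bins at 127830001 and 127885001 entered only through their partners.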

How the data were processed

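For Micro-C of 6 HAP1 replicates the authors deposited 1 loop list, which names no replicate and was taken here as pooling them. BWA and hg19 are named, without their roles, in the submitters' processing notes, and juicer_tools 1.22.01 per the file headers. The column names are those of the HiCCUPS caller. Whether and how the replicates were pooled, and how deeply they were sequenced, is not stated in the labels or the header. The authors deposited raw contact counts (and counts of merged pixels), 4 expected contact values on the same scale, and a q-value for each. The file also has positions and radii in bp, per the file headers.

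Computed here, with Python 3.11.15 (scipy 1.17.1, pandas 2.3.3, numpy 2.4.6; figures with matplotlib 3.10.9), were strength, span (between anchor midpoints), merged anchors (overlap of at least 1 bp), loops over 5 kb positions, percentiles among like loops, and span-corrected depth (40 span bins). Intervals of counts and shares are exact Poisson or binomial at 95% and cover counting error only. Those of medians are order-statistic and rest on the spread over loops. With the 4 loops of PVT1 or fewer they are the full range and do not reach 95%. Functions were tested on simulated loops. Coordinates are 1-based. Of the 17 neighbouring genes listed, 17 matched the RefSeq table by symbol or synonym.

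Loops and lists were chosen with earlier results of these data known. The naming rule took every loop at MYC or in PVT1, and flank loops by count, strength, length or shared anchor.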

Additional observations from a re-analysis of the deposited data

How the results depend on the processing

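Of 91 alternative values, 78 stayed within 1.5 times the count reported or within the interval of the value reported, and 13 did not. For medians of PVT1, of the upper flank, and of lower-flank and bridging loops, that interval was the full range over loops. A reversal, meaning a change of sign where the reported interval leaves out 0, could be counted for contact depth alone. Contact depth did change sign with loops of 10 kb (log2 difference 0.17, against -0.26). Its reported interval takes in 0, so this value is among the 78. No value could therefore be counted as reversed, and the absence of reversals says nothing here. Of the 91, 18 were chosen after seeing the data. So were 2 of the comparisons they belong to. These are the horizontal against vertical expectation of upward MYC loops, and the expectation percentiles of upward MYC and upper-flank loops. With each q-value at or below 0.1, the region held 13 loops (65.0% of its loops, against 72.0% of all loops). With 5 kb anchors only, 5 loops were at MYC, and the upward MYC loops with horizontal above vertical expectation were 5. The upward share at MYC was 100% with 5 kb anchors only, with at least 2 merged pixels and with a margin of 0 kb, since each leaves out the 1 downward loop. With the horizontal or the largest expectation, median strength was 2.65 at MYC and 2.44 in PVT1. The median percentile of MYC loops was 26.5 with the horizontal expectation. With the other expectations it was 39.4 to 80.8, within its reported interval. With the lower-left expectation, the lower flank and bridging loops had a median strength of 21.0. Of windows of 1 Mb, 18.9% had 8.5 loops or fewer, the value used for the region at that window length. The causes were not tested, beyond the loops each choice leaves out. Leaving out a replicate was not run, since the list does not tell them apart. No paired analysis was possible because there is 1 group and 1 list. Counts of 11 to 73 contacts limit the precision of single loops.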
